A study of Mus musculus with 42 samples.

Results

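The 8 genes described here are a set known from uterine glands: Foxa2, Lif, Prss28, Prss29, Ttr, Prap1, Sox9 and Sox17. Their probe sets were found by gene symbol. Each was read by 1 probe set annotated to that symbol alone, so 8 of the 28856 probe sets and 8 of the 19938 named genes on the array are described, and no probe set naming a member together with another gene was found. The arrays measured total RNA from reproductive tracts of adult CD1/129 mice aged 3 to 7 months, with all females taken in diestrus and 3 mice per group labelled as biological replicates. Uterus came from Hoxa9,10,11-/- mice (AKO), Hoxd9,10,11-/- mice (DKO), Hoxa9,10,11-/- mice that were also heterozygous for the Hoxd9,10,11 mutation (AKDH), Hoxd9,10,11-/- mice that were also heterozygous for the Hoxa9,10,11 mutation (AHDK), and wild-type mice (WT). Oviduct came from AKO and WT females. Vas deferens came from males of all 5 genotypes and caudal epididymis from AKO and WT males, which gave 21 female and 21 male arrays. The mutations are of the germ line, so every cell of a mutant carries them. Whole tissue was used, so fewer gland cells and less RNA per gland cell cannot be told apart.

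The glands of the mouse uterus are tubes of epithelium that lie in the stroma and open into the lumen. Their secretions are needed for embryo implantation. FOXA2 is a transcription factor that marks the gland epithelium and is required for gland formation and for the glandular production of LIF, a cytokine that acts through the LIF receptor and STAT3 on the luminal epithelium. SOX17 and SOX9 are transcription factors of the uterine epithelium. SOX9 is prominent in glands, and SOX17 acts in epithelial hormone response and is also made by endothelial cells. Prss28 and Prss29 encode the implantation serine proteinases, secreted tryptase-like enzymes of the glands that progesterone induces around implantation. Prap1 encodes a proline-rich acidic secreted protein of epithelium, and Ttr encodes transthyretin, a carrier of thyroid hormone and retinol-binding protein. Hoxa10 and Hoxa11 are posterior Hox genes of the developing and adult uterus, and their single mutants are known for implantation defects.

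The results on Prss28 and Prss29 concern a pair of adjacent genes, so their promoters are shown side by side. Of the 8 members, 5 were present in the RefSeq promoter table, and Ttr, Sox9 and Sox17 were not. Each sequence runs from 250 bases before to 50 bases after the RefSeq transcript start in GRCm38.p6, on the plus strand. Prss28 lies at chr17:25308396-25308695 and Prss29 at chr17:25318404-25318703. The capitals mark runs of at least 8 bases that are identical and aligned in both.
Prss28: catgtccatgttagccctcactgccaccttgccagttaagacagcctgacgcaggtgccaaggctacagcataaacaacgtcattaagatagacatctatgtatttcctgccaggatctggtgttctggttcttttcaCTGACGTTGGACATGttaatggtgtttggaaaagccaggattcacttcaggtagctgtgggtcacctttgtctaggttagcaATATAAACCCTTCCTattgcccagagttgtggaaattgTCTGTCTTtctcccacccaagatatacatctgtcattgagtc
Prss29: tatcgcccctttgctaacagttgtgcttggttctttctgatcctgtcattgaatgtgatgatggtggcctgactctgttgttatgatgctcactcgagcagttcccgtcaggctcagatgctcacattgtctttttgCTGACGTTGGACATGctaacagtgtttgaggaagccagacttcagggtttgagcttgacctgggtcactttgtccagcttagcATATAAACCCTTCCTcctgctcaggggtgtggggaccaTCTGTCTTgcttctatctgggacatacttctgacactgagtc
The promoters shared 193 of 300 bases (64.3%) in a global alignment. Of the 3 shared runs, 2 were 15 bases long. One of these was CTGACGTTGGACATG, which began at -112 in Prss28 and -113 in Prss29. The other, ATATAAACCCTTCCT, began at -30 in both and holds a TATAAA element, which 8.32% of the 32851 promoters in the table held on the transcribed strand. TTTAT on either strand, a core recognised by posterior Hox proteins, had 2 matches in the Prss28 promoter and 1 in the Prss29 promoter, and 40.0% of all promoters held it. One copy in each overlaps the TATAAA element. TGTTCT on either strand, the half-site of the progesterone receptor and related steroid receptors, occurred in the Prss28 promoter and not in the Prss29 promoter, against 19.0% of all promoters.

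Prap1, the member with the largest difference between tissues, has its promoter at chr7:140093146-140093445 on the plus strand, and the capitals mark its only match to TTTAT, here read on the other strand.
Prap1: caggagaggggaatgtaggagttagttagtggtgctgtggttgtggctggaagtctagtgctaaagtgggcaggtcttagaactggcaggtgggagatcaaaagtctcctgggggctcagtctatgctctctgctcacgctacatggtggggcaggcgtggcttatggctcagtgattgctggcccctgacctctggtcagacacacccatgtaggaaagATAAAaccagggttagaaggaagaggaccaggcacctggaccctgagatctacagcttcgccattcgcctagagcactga
No TGTTTAC on either strand, a Foxa motif held by 3.65% of promoters, was found in the Prss28, Prss29, Prap1 or Lif windows. A match is a description of these letters and not a measured binding site.

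All values are deposited log values, taken as log2, and each probe set is centred on a median of 0 separately in the 21 female and the 21 male arrays. A value of 1 thus lies 1 log2 unit above the median array of that sex. Levels of different genes, and of females and males, were not compared. A difference was called when limma's Benjamini-Hochberg adjusted p over all 19938 genes was below 0.05.

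Several arrays stood apart before any comparison. The WT oviduct of replicate 2 had Xist at -5.92 and the Y-linked Eif2s3y at 2.09, against -0.42 to 0.00 and -0.03 to 0.01 in the other 5 oviduct arrays, which goes against its label as a female sample. Its mean over 8 measured ovary markers was 2.44, against -0.18 to 0.46 in the others. The WT uterus of replicate 1 had 62 genes at least 1 log2 unit above every other uterus array, the AKDH uterus of replicate 1 had 35, and each of the other 13 had 0 to 8. Hoxa11 was at -1.59, 0.67 and -0.59 in AKO uteri and -1.57, -0.61 and 0.00 in AKDH uteri, against 1.23 to 2.75 in WT uteri. Its change was called in AKDH (limma adjusted p = 0.016) and not in AKO (limma adjusted p = 0.11). In AKO uteri Hoxa10 was at -1.19, 0.08 and -0.38, against 0.85, 0.31 and 0.69 in WT. Hoxa9 was at -0.27, 0.20 and 0.30 in AKO uteri, against 0.15, 0.29 and 0.76 in WT, and overlapped. Neither Hoxa9 nor Hoxa10 was called in AKO or AKDH uteri. Hoxd9, Hoxd10 and Hoxd11 ranged over 0.00 to 1.11 in DKO uteri, against -0.10 to 1.19 in WT uteri, so these probe sets did not check the DKO label of the uterus arrays. In vas deferens Hoxd9 was at -0.86, -0.56 and -0.80 in DKO, against -0.26, -0.18 and -0.13 in WT. That change was -0.55 ± 0.08 (SE, limma adjusted p = 0.0058), and Hoxd10 and Hoxd11 were not called there. Whether the 3 Hoxd probe sets lie in mutated sequence was not given in the sources used here. As a check of tissue, the mean over 11 motile cilia markers was 2.88 to 3.41 in the 6 oviduct arrays and -0.24 to 0.09 in the 15 uterus arrays.

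**Figure D1:**
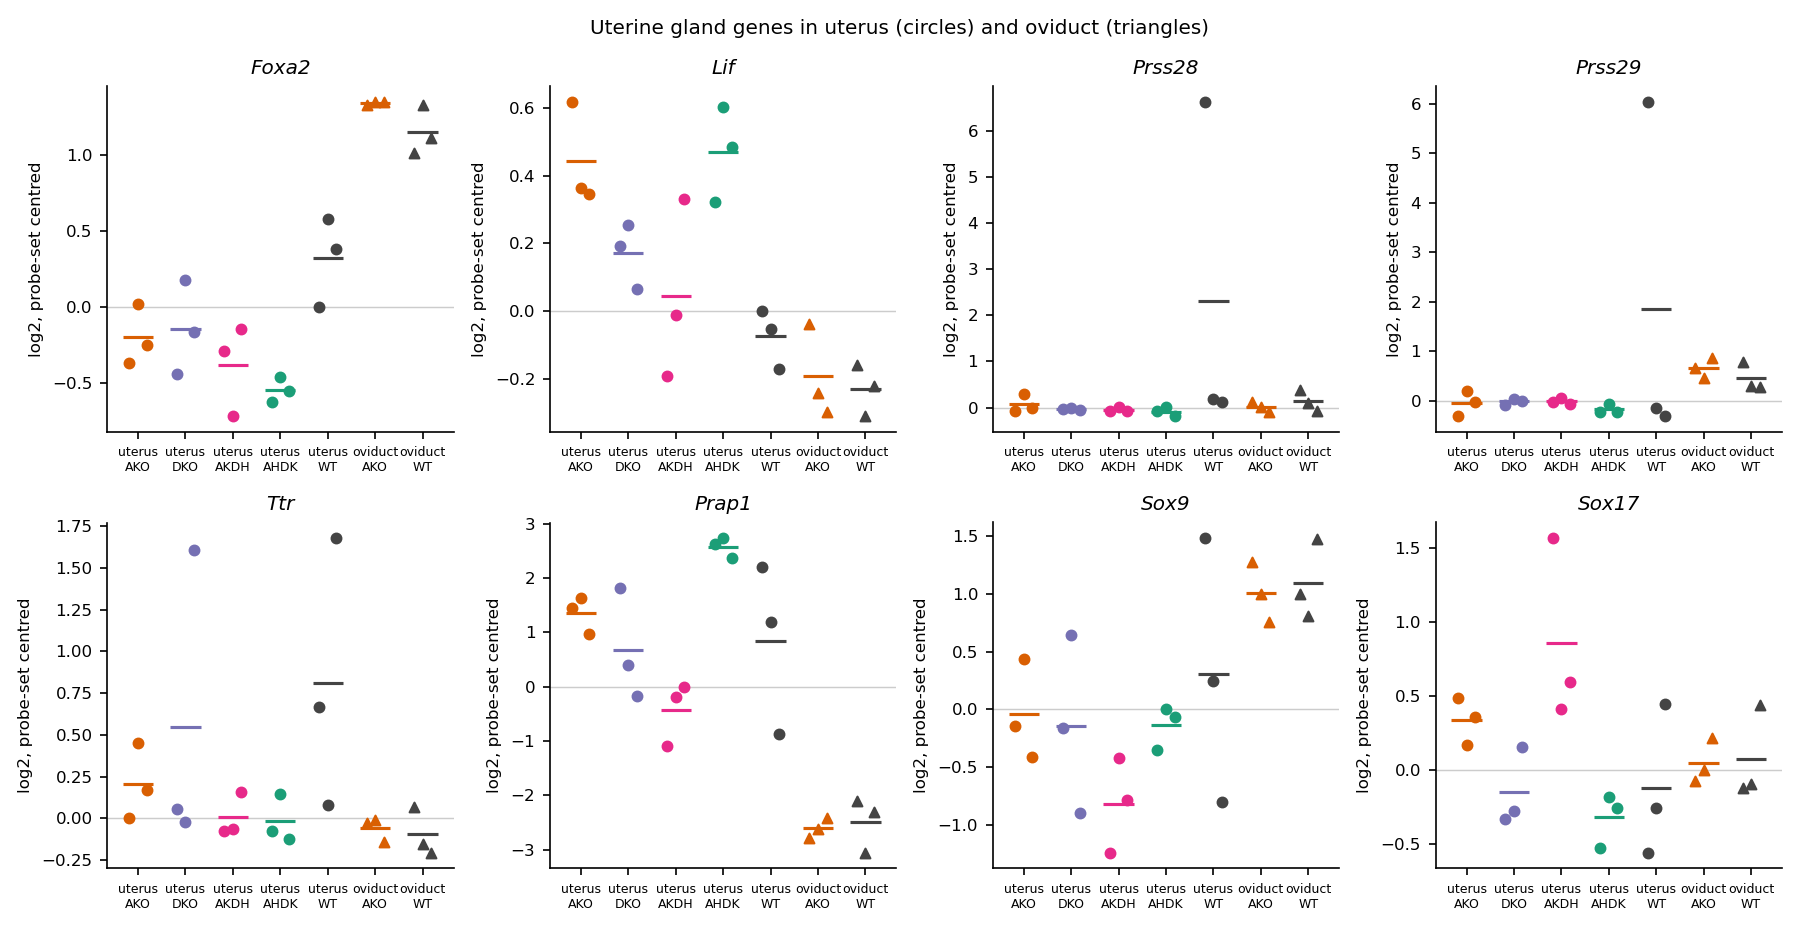
Values of the 8 genes in each female array (log2, each probe set centred on its median over the female arrays, with a separate scale per gene). Each point is 1 mouse and each bar the mean of 3; circles are uterus and triangles oviduct. Prss28 and Prss29 have 1 point far above all others, in the WT uterus of replicate 1, Prap1 is low and Foxa2 high in all oviduct arrays, and the mean of Foxa2 is lowest in AHDK uteri.

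The secreted proteases Prss28 and Prss29 were high in 1 of the 15 uteri. Prss28 was at -0.08, 0.30 and -0.01 in AKO uteri, -0.03, 0.00 and -0.05 in DKO uteri, -0.08, 0.02 and -0.07 in AKDH uteri and -0.08, 0.01 and -0.19 in AHDK uteri, against 6.64, 0.19 and 0.11 in WT uteri. Prss29 was at -0.30, 0.21 and -0.03 in AKO uteri, -0.08, 0.04 and 0.00 in DKO uteri, -0.02, 0.06 and -0.07 in AKDH uteri and -0.23, -0.06 and -0.23 in AHDK uteri, against 6.04, -0.14 and -0.31 in WT uteri. The high value of both was in the WT uterus of replicate 1, while the other 14 uteri, WT and mutant, lay within -0.19 to 0.30 for Prss28 and -0.31 to 0.21 for Prss29.

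Among all 19938 genes these were the 2 with the greatest height over the next uterus array in WT replicate 1, by 6.33 for Prss28 and 5.83 for Prss29. Spink1, which encodes a secreted inhibitor of trypsin-like proteases, came next, at 6.31 in that array and at most 0.92 in the other 14. Cyp26a1, a retinoic acid hydroxylase induced by progesterone in the uterine epithelium, was at 3.51 there and at most 0.47 in the others. No other uterus array held a gene 4 log2 units or more above all others, and WT replicate 1 held 3. How far the probe sets of the related genes Prss28 and Prss29 share sequence was not tested.

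Hormone-responsive lists also varied among the WT uteri. The mean over 11 oestrogen-responsive genes, Lif among them, was -1.12 in WT replicate 1, against 0.59 and -0.29 in the other WT uteri. Ltf, an oestrogen-induced secretion, was at -3.45, against 0.32 and -0.79. The mean over 8 progesterone-responsive genes was 1.13 in WT replicate 1 and 0.95 in WT replicate 3, against -0.44 in WT replicate 2. This list includes Cyp26a1, which was at 3.51, -0.92 and -0.39 in WT replicates 1, 2 and 3. Not all of the list was high in WT replicate 1. Ihh was at -1.18, 0.07 and 0.92 and Gata2 at -0.42, 0.13 and 0.82 in the same order, both lowest in replicate 1. The mean over 14 epithelium markers was -0.13 in WT replicate 1, against -0.09 and -0.24 in the other WT uteri. Their part in the protease values was not tested.

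**Figure D2:**
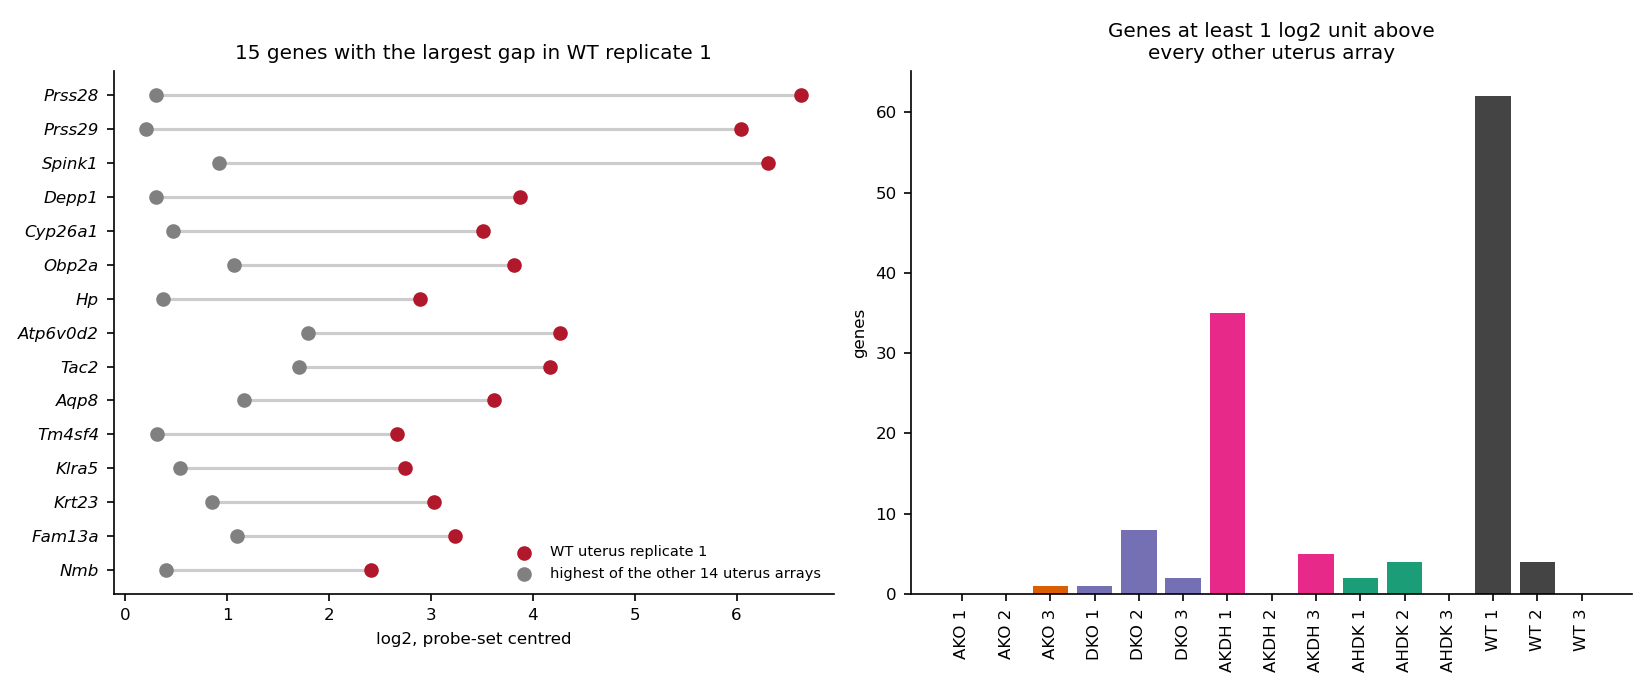
Left, the 15 genes that stood furthest above all other uterus arrays in the WT uterus of replicate 1, with its value in red and the highest of the other 14 arrays in grey (log2, probe-set centred). Right, the number of genes at least 1 log2 unit above every other uterus array, per array. Prss28, Prss29 and Spink1 lead, and WT replicate 1 has 62 such genes, followed by 35 in AKDH replicate 1.

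None of the protease differences between mutant and WT uterus was called. The log2 changes for Prss28 ran from -2.40 ± 1.25 (SE, AHDK) to -2.24 ± 1.25 (AKO) and those for Prss29 from -2.04 ± 1.21 (AHDK) to -1.87 ± 1.21 (AKDH), with limma adjusted p from 0.29 to 0.71. Without WT replicate 1, the Prss28 changes were -0.24 to -0.08 and the Prss29 changes 0.05 to 0.21, so this 1 array set their size and, for Prss29, their direction. In oviduct, Prss29 was at 0.66, 0.45 and 0.86 in AKO and 0.78, 0.30 and 0.28 in WT. All 6 values were above those of the 14 uteri other than WT replicate 1. Prss28 showed no such step, at 0.12, 0.02 and -0.09 in AKO oviducts and 0.38, 0.10 and -0.07 in WT oviducts.

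Neighbouring tryptase genes did not share the high value. The RefSeq gene order around the pair is Prss34, Prss28, Prss29, Tpsab1, Tpsb2 and Tpsg1 among genes measured here, and in WT replicate 1 Prss34 was at 0.10, Tpsab1 at 0.41, Tpsb2 at 0.00 and Tpsg1 at 0.16. Of 11 tryptase-like genes other than the pair, 0 were called in AKO, DKO and AKDH uterus against WT (0.0903%, 0.973% and 6.58% of all genes), and 1 rose in AHDK (3.53% called). That gene, Prss32, was at 1.54, 1.02 and 0.60 in AHDK uteri and -0.01, 0.00 and -0.05 in WT uteri. The groups did not overlap, and the change was 1.07 ± 0.19 (SE, limma adjusted p = 0.016).

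Foxa2, the gland-defining transcription factor, fell in the uteri of both compound genotypes. It was at -0.29, -0.72 and -0.15 in AKDH uteri and -0.62, -0.46 and -0.56 in AHDK uteri, against 0.00, 0.58 and 0.38 in WT uteri. All 6 compound-mutant values lay below all 3 WT values. The log2 change was -0.71 ± 0.19 (SE, n = 3 each, limma adjusted p = 0.048) for AKDH, a level 0.61 times that of WT, and -0.87 ± 0.19 (limma adjusted p = 0.033) for AHDK, 0.55 times WT. In AKO uteri Foxa2 was at -0.37, 0.02 and -0.25, and in DKO uteri at -0.44, 0.17 and -0.17. These groups overlapped WT by 1 array each, and their changes of -0.52 ± 0.19 and -0.47 ± 0.19 were not called (limma adjusted p = 0.38 and 0.27). The direct comparisons found no call either: AKDH against AKO gave -0.19 ± 0.19 and AHDK against DKO -0.40 ± 0.19 (limma adjusted p = 0.82 and 0.67). An effect of the added heterozygous mutation was therefore not shown.

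The Foxa2 calls were close to the threshold. Leaving out 1 array at a time gave limma adjusted p from 0.030 to 0.15 for AKDH, where the call was kept without WT replicate 1 only, and from 0.032 to 0.14 for AHDK, where again it was kept without WT replicate 1 only. Over all 14 alternatives of each comparison the adjusted p was 0.022 to 0.16 for AKDH and 0.0041 to 0.14 for AHDK. Without that array the changes were -0.87 for AKDH and -1.03 for AHDK. The exact permutation test of 3 against 3 arrays gave p = 0.1 for both, the smallest it can give.

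The mean over 14 epithelium markers, which do not include Foxa2, was 0.20, 0.26 and 0.24 in AHDK uteri, against -0.13, -0.09 and -0.24 in WT uteri, so the AHDK values were higher than all WT values while Foxa2 was lower. In AKDH it was 0.51, -0.20 and -0.10, which overlapped WT. Of these markers 0 were called in AHDK (3.53% of all genes) and 1 rose in AKDH (6.58% called). That 1 was Krt19, a keratin of simple epithelium, by 0.70 ± 0.16 (limma adjusted p = 0.029). Foxa1, the closest relative of Foxa2, was at 0.00, 0.15 and -0.04 in AHDK uteri and 0.01, 0.00 and -0.08 in AKDH uteri, against 0.00, -0.06 and -0.08 in WT uteri, so its values overlapped between groups.

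Lif rose in AHDK uteri. It was at 0.32, 0.60 and 0.49 in AHDK uteri against 0.00, -0.05 and -0.17 in WT uteri, with no overlap, and the change was 0.54 ± 0.13 (SE, limma adjusted p = 0.041), or 1.46 times WT. AKO uteri had 0.62, 0.36 and 0.35, also all above WT, with a change of 0.52 ± 0.13 that was not called (limma adjusted p = 0.16). DKO uteri had 0.19, 0.25 and 0.07, above WT without overlap and not called at 0.25 ± 0.13 (limma adjusted p = 0.39), and AKDH uteri had -0.19, -0.01 and 0.33, which overlapped WT. In AHDK uteri Lif rose and Foxa2 fell, while in AKDH uteri Foxa2 fell and the Lif change was 0.12 ± 0.13 (limma adjusted p = 0.65).

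The Lif call was lost in each of the 6 fits without 1 AHDK or WT array, with limma adjusted p from 0.067 to 0.12 and changes from 0.48 to 0.62, and over all 14 alternatives the adjusted p was 0.013 to 0.12. Immune markers were also higher in AHDK uteri than in WT uteri. The mean over 10 macrophage and dendritic cell markers was 0.95, 0.86 and 0.48 in AHDK uteri and -0.12, -0.46 and -0.17 in WT uteri. The mean over 10 neutrophil and eosinophil markers was 1.61, 0.85 and 1.28 in AHDK and -0.15, -0.06 and 0.08 in WT. In AHDK uteri 6 of the 10 macrophage and dendritic cell markers and 2 of the 10 neutrophil and eosinophil markers rose, while 3.53% of all genes were called. Among them was Cd74, an MHC class II chaperone, which rose by 0.93 ± 0.14 (limma adjusted p = 0.0092). DKO uteri, whose Lif change was not called, had 0.82, 0.27 and 0.48 for the first list and 1.95, 0.58 and 0.60 for the second. Their part in the Lif values was not tested.

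Of the 14 measured genes of the LIF receptor pathway, 0 were called in any of the 4 mutant uteri against WT. The share of all genes called there ran from 0.0903% (AKO) to 6.58% (AKDH). Stat3, the transcription factor activated by the receptor, was at 0.07, 0.00 and 0.07 in AHDK uteri and 0.16, -0.02 and -0.32 in WT uteri. Socs3, a target and inhibitor of STAT3, was at 0.04, 0.22 and 0.09 in AHDK uteri and 0.18, -0.14 and 0.00 in WT uteri. Both overlapped. Lifr, the receptor, was at -0.72, -0.85 and -0.62 in AHDK uteri and 0.87, -1.03 and -1.01 in WT uteri, where WT replicate 1 was again the array apart.

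Prap1 had the widest span of uterus group means among the members, from -0.42 in AKDH to 2.57 in AHDK. It was at 2.62, 2.73 and 2.37 in AHDK uteri, all above every other uterus array, and at -1.09, -0.18 and 0.00 in AKDH uteri. AKO uteri had 1.45, 1.63 and 0.97 and DKO uteri 1.81, 0.40 and -0.17, against 2.21, 1.19 and -0.87 in WT uteri. The WT mice spanned a range of 3.08. No mutant was called against WT: the changes were 1.73 ± 0.67 for AHDK (limma adjusted p = 0.16, and 0.024 to 0.40 over its alternatives, of which array weights gave a call) and -1.27 ± 0.67 for AKDH (limma adjusted p = 0.29). Without WT replicate 1 they were 2.42 for AHDK and -0.58 for AKDH, and without WT replicate 3 they were 0.88 and -2.12. The compound genotypes differed from each other by -3.00 ± 0.67 for AKDH against AHDK (limma adjusted p = 0.048), a level 0.13 times as high. This was the only member called there, and 1.72% of all genes were called. That call was lost in each of 6 fits that left out 1 array, with limma adjusted p from 0.058 to 0.17 and changes from -3.21 to -2.67, and over all 14 alternatives the adjusted p was 0.0076 to 0.17.

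Of 11 measured gland and uterine secretion genes, 1 rose in AHDK uteri (3.53% of all genes called). In AKO (0.0903%), DKO (0.973%) and AKDH uteri (6.58%), 0 were called. Ctsl, a cysteine protease, was at 0.76, 0.20 and 0.63 in AHDK uteri and -0.45, -0.59 and -1.19 in WT uteri, a change of 1.27 ± 0.25 without overlap (limma adjusted p = 0.022). Clca1, a secreted regulator of chloride conductance, was at 2.42, 2.56 and 2.17 in AHDK uteri and -3.66, 2.05 and 0.43 in WT uteri. Cxcl15, a chemokine of uterine glands, was at -2.08, -0.98 and -0.97 in AHDK uteri and -1.78, 0.98 and 2.17 in WT uteri. Neither was called, and the median change over the list was 0.69 in AHDK, against -0.02 over all genes.

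Sox17 was at 1.57, 0.42 and 0.60 in AKDH uteri, 0.49, 0.17 and 0.36 in AKO uteri, -0.32, -0.27 and 0.16 in DKO uteri and -0.52, -0.18 and -0.25 in AHDK uteri, against -0.56, -0.25 and 0.45 in WT uteri. AKDH values overlapped WT by 1 array and lay above all AHDK values. AKDH against WT gave 0.98 ± 0.30 (limma adjusted p = 0.071) and AKDH against AHDK 1.18 ± 0.30 (limma adjusted p = 0.068), neither called. Both were close to the threshold. Of 14 alternatives each, 3 gave a call against WT (limma adjusted p from 0.040 to 0.26) and 4 against AHDK (0.016 to 0.25). The AKDH uterus of replicate 1, with the highest Sox17, had a smooth muscle marker mean of -0.80 and a stroma marker mean of -0.69, against 0.41 and 0.70 and against 0.25 and 0.49 in the other AKDH uteri. Without it the AKDH change against WT was 0.63. The part of tissue makeup in the Sox17 values was not tested.

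Sox9 was at -1.24, -0.42 and -0.79 in AKDH uteri, -0.14, 0.44 and -0.41 in AKO uteri, -0.16, 0.64 and -0.90 in DKO uteri and -0.35, 0.00 and -0.06 in AHDK uteri, against 1.48, 0.24 and -0.80 in WT uteri. Every genotype overlapped WT, whose 3 mice spread more widely than any mutant group. The widest change, -1.13 ± 0.51 in AKDH, was not called (limma adjusted p = 0.21) and was -0.54 without WT replicate 1.

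Ttr was high in single mice of different genotypes. It was at 0.00, 0.45 and 0.17 in AKO uteri, 0.06, -0.02 and 1.61 in DKO uteri, -0.07, -0.06 and 0.16 in AKDH uteri and -0.07, 0.15 and -0.12 in AHDK uteri, against 0.67, 0.08 and 1.68 in WT uteri. The DKO and WT uteri of replicate 3 had the high values, and all 4 genotypes overlapped WT. The changes of -0.82 to -0.26 were not called.

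**Figure D3:**
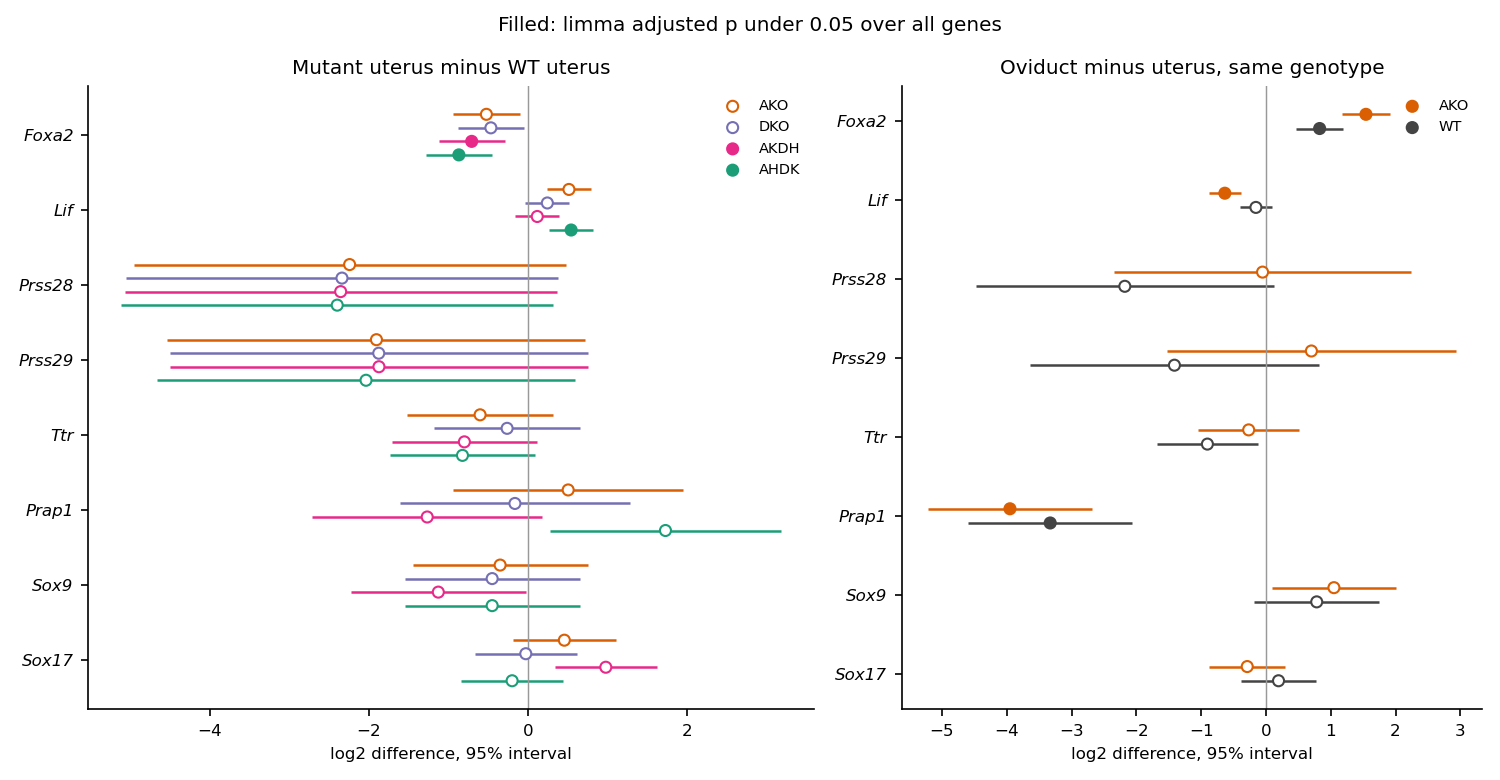
Log2 differences of the 8 genes with 95% intervals from limma, mutant minus WT uterus on the left and oviduct minus uterus of the same genotype on the right. Filled points were called at an adjusted p below 0.05 over all genes. In uterus these are Foxa2 in AKDH and AHDK and Lif in AHDK; the Prss28 and Prss29 intervals all reach above 0.

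The 4 comparisons of mutant with WT uterus share the same 3 WT arrays. Counted over the set, 0 of 8 members were called in AKO uteri against WT (0.0903% of all genes) and 0 of 8 in DKO uteri (0.973%). At an unadjusted limma p below 0.05 there were 2 members for AKO (9.35% of all genes) and 1 for DKO (15.3%). In AKDH uteri 1 of 8 was called, against 6.58% of all genes, and in AHDK uteri 2 of 8, against 3.53%. The members' median change against WT was -0.44 for AKO uteri, -0.36 for DKO uteri, -0.96 for AKDH uteri and -0.64 for AHDK uteri, while the median over all genes was within -0.02 to 0.01. Without WT replicate 1 the members' medians were 0.21 for AKO, -0.02 for DKO, -0.37 for AKDH and -0.09 for AHDK, so their size rested on that array and, for AKO, their direction too. Between mutants, 0 of 8 were called for AKDH against AKO (0%), AHDK against DKO (0.0251%) and DKO against AKO (0.186%), with 2 (10.3% of all genes), 2 (7.47%) and 0 (13.6%) members at an unadjusted limma p below 0.05.

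Of 23 measured other regulators of gland and tract epithelium, 1 rose and 2 fell in AKDH uteri, where 6.58% of all genes were called. In AKO (0.0903% of all genes), DKO (0.973%) and AHDK uteri (3.53%), 0 of the 23 were called. Whether the genotypes differ in this was not tested. Lef1, a Wnt-pathway transcription factor of developing glands, was at -0.62, -0.22 and -0.25 in AKDH uteri and 1.17, 0.94 and 1.88 in WT uteri, a change of -1.69 ± 0.31 (limma adjusted p = 0.011). Dkk2, a Wnt modulator, changed by -0.87 ± 0.20 (limma adjusted p = 0.029), and Fgfr2, a growth factor receptor of the epithelium, by 0.60 ± 0.13 (limma adjusted p = 0.023). Lef1 was at -0.46, 0.00 and 0.00 in AKO uteri and 0.28, 0.24 and 0.46 in AHDK uteri, both below all WT values and neither called. Of 14 other Sox and Fox factors, 1 rose in AKDH uteri, Sox6, by 0.46 ± 0.12 (limma adjusted p = 0.044), and 0 were called in the other genotypes. Of 4 measured oviduct secretory markers, 1 rose in AKDH uteri. This was Wnt2b, a Wnt ligand, at 0.59, 0.11 and 0.84 in AKDH uteri and -0.92, -1.94 and -1.69 in WT uteri, a change of 2.03 ± 0.28 without overlap (limma adjusted p = 0.004). Wnt2b was not high in AKDH uteri alone. AKO uteri had 0.00, 0.20 and -0.19, also above all WT values. DKO uteri had -1.50, -1.54 and -0.75 and AHDK uteri -1.13, -1.13 and -0.70, which overlapped WT.

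Oviduct and uterus differed in different directions for different members. Prap1 was at -2.77, -2.61 and -2.42 in AKO oviducts and -2.10, -3.05 and -2.31 in WT oviducts, below every uterus array of any genotype. Against the uterus of the same genotype it fell, with log2 differences of -3.95 ± 0.60 in AKO (SE, limma adjusted p = 0.00015) and -3.33 ± 0.60 in WT (limma adjusted p = 0.00065), levels of 0.065 and 0.099 times uterus. Foxa2 was at 1.33, 1.35 and 1.35 in AKO oviducts and 1.01, 1.33 and 1.11 in WT oviducts, above every uterus array. Its differences from uterus were 1.54 ± 0.17 in AKO (limma adjusted p = 5.1e-06) and 0.83 ± 0.17 in WT (limma adjusted p = 0.0022). After quantile normalization the WT difference was 0.30 with a limma adjusted p of 0.45, the highest of its 14 alternatives, which began at 0.0014 and of which 13 kept the call.

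Sox9 was also above 0 in every oviduct array, at 1.28, 1.00 and 0.76 in AKO and 1.00, 0.81 and 1.47 in WT, although the WT uterus of replicate 1 reached 1.48. The differences from uterus, 1.05 ± 0.45 in AKO and 0.78 ± 0.45 in WT, were not called (limma adjusted p = 0.13 and 0.24). Lif was at -0.04, -0.24 and -0.30 in AKO oviducts and -0.16, -0.31 and -0.22 in WT oviducts. In AKO it lay below AKO uterus without overlap, by -0.63 ± 0.12 (limma adjusted p = 0.0012), and in WT the difference of -0.16 ± 0.12 was not called (limma adjusted p = 0.38).

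For WT oviduct against WT uterus, 2 of 8 members were called, against 23.9% of all genes, and for AKO oviduct against AKO uterus 3 of 8, against 17.8%. Without the WT oviduct of replicate 2, the WT differences were 0.74 for Foxa2 and -3.05 for Prap1, both still called (limma adjusted p = 0.012 and 0.0039). Sox17 and Ttr were near 0 in oviduct, at -0.12 to 0.44 and -0.21 to 0.07 over the 6 arrays, and were not called against uterus of either genotype.

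In the oviduct, AKO against WT called 0 of 8 members, against 0% of all genes, with 0 members at an unadjusted limma p below 0.05 (3.05% of all genes). The changes ranged from -0.12 for Prss28 to 0.21 for Prss29, and for Foxa2 the AKO values lay just above all WT values, by 0.19 ± 0.09 (limma adjusted p = 0.99). Without the WT oviduct of replicate 2 the changes ran from -0.40 for Prap1 to 0.28 for Foxa2, and none was called. The AKO effect in oviduct minus that in uterus was 0.71 ± 0.24 for Foxa2 and -0.48 ± 0.17 for Lif. No member was called in that difference (0% of all genes, limma adjusted p = 0.88 and 0.89 for these 2), and 2 had an unadjusted p below 0.05 (4.25% of all genes).

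Within a genotype, the members varied between mice to very different degrees. The pooled SD within uterus groups was 1.68 for Prss28, 1.62 for Prss29, 0.89 for Prap1, 0.68 for Sox9, 0.56 for Ttr, 0.39 for Sox17, 0.25 for Foxa2 and 0.16 for Lif, against a median of 0.14 over all genes. Thus 99.2% of genes varied less than Prap1 and 57.4% less than Lif. The pooled SD of the proteases rested on the WT group with its high replicate 1. The SD among WT uteri was 3.74 for Prss28 and 3.62 for Prss29. Within the mutant groups it was 0.02 to 0.20 for Prss28 and 0.06 to 0.25 for Prss29. No pair of members passed the adjustment by both measures of correlation. For Prap1 and Sox17, with group means removed, Pearson's r was -0.79 (permutation p = 0.0055, Benjamini-Hochberg adjusted p = 0.051 over 28 pairs) and Spearman's rho -0.78 (permutation p = 0.0086, adjusted p = 0.085) over 15 uterus arrays. Leaving out the 2 arrays farthest from the median gave r = -0.66, and leaving out the WT arrays -0.65. Prss28 and Prss29 had r = 0.999 (permutation p = 0.0015, adjusted p = 0.042) and rho = 0.84 (permutation p = 0.0074, adjusted p = 0.085). WT replicate 1 lies far from the others in this pair, and r without the WT arrays was 0.88. For Sox9 and Sox17 r was -0.74 (permutation p = 0.014, adjusted p = 0.098) and rho -0.64 (permutation p = 0.036, adjusted p = 0.17), with r = -0.58 without the 2 farthest arrays. For Prss28 and Sox9 r was 0.70 (permutation p = 0.0042, adjusted p = 0.051) and rho 0.74 (permutation p = 0.0091, adjusted p = 0.085). Without the 2 arrays farthest from the median in Prss28 r was 0.13, and without the WT arrays it was 0.52. Of the 28 pairs, 1 passed 0.05 after adjustment by r and 0 by rho.

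**Figure D4:**
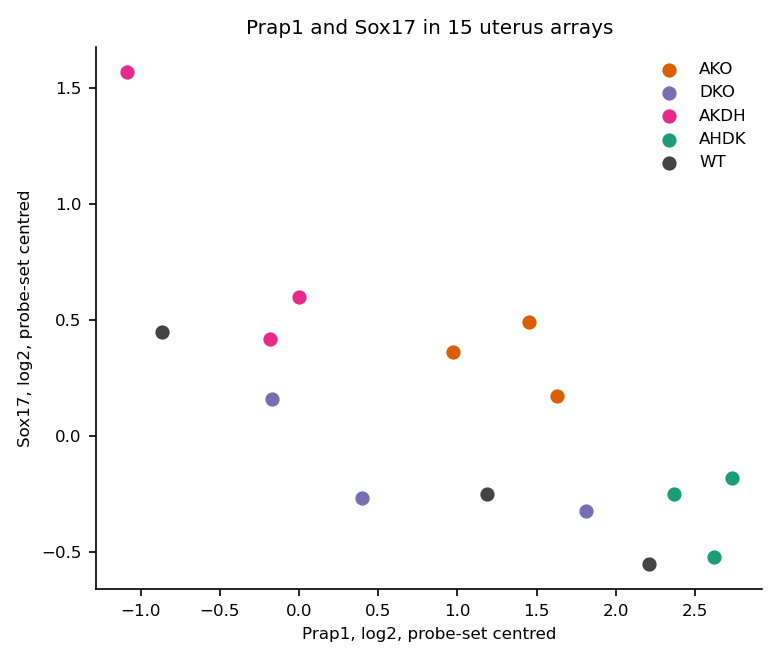
Prap1 on the horizontal axis and Sox17 on the vertical axis in the 15 uterus arrays (log2, probe-set centred), 1 point per mouse, coloured by genotype. AHDK mice lie at high Prap1 and low Sox17, and the AKDH uterus of replicate 1 has the highest Sox17 (1.57) and the lowest Prap1 (-1.09).

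The genes most like each member over the 15 uterus arrays, by Pearson's r as a description over arrays that share genotypes, differed by member. For Sox17 they were Zmpste24 (r = 0.97), Ippk (0.95) and Gata2 (0.95). Gata2, a transcription factor that acts with the progesterone receptor, was at 1.24, 0.31 and 0.67 in AKDH uteri and -0.42, 0.13 and 0.82 in WT uteri. For Ttr they were Calb2 (0.93), Pkdcc (0.92) and Edaradd (0.91), for Sox9 Garem1 (0.89), F3 (0.89) and Garre1 (0.88), for Prap1 Zfp36l1 (0.89), Ets2 (0.88) and Lrrc8a (0.88), and for Lif Batf2 (0.81), Dnaaf5 (0.79) and H2-Ea (0.78). For Foxa2 the nearest was Foxj1 (0.88), the regulator of motile cilia, at -0.26, -0.14 and -0.14 in AHDK uteri and 0.00, 0.16 and 0.02 in WT uteri, followed by Oscar (0.87) and Drd2 (0.86). Foxj1 stayed within -0.26 to 0.16 over all uterus arrays, against 2.33 to 2.80 in oviduct, so its r rests on small differences. For both proteases the 3 nearest were Pinlyp, Slc13a2 and Spink1 (0.98 to 0.99), all high in WT replicate 1.

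The male ducts have no uterine glands and serve as a contrast. There the other 7 members spanned -0.28 to 0.49 over 15 vas deferens arrays and 6 epididymis arrays, and Sox9 spanned -1.01 to 0.27. Prss28 and Prss29 stayed within -0.23 to 0.22 of their male medians, which are not comparable with the female ones.

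**Figure D5:**
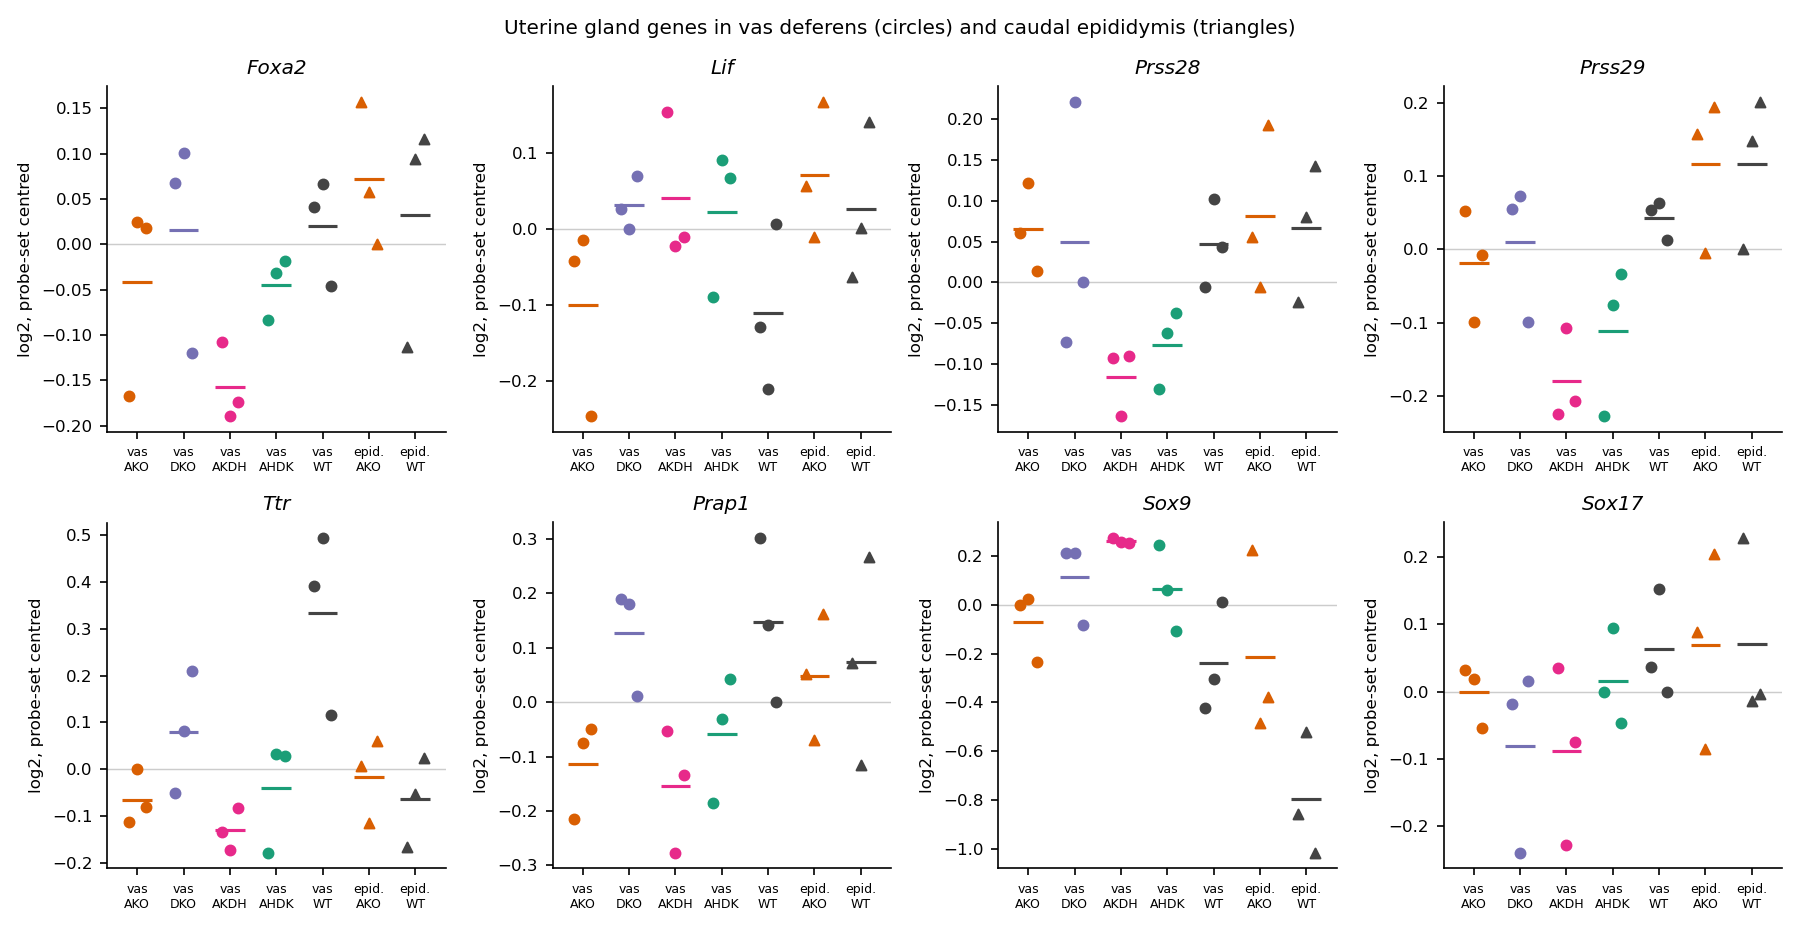
Values of the 8 genes in each male array (log2, each probe set centred on its median over the male arrays, with a separate scale per gene). Each point is 1 mouse and each bar the mean of 3; circles are vas deferens and triangles caudal epididymis. Ttr is highest in WT vas deferens, and Sox9 is lowest in WT epididymis.

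Ttr was higher in WT vas deferens than in mutant ones. AKO males had -0.11, 0.00 and -0.08, DKO males -0.05, 0.08 and 0.21, AKDH males -0.13, -0.17 and -0.08 and AHDK males -0.18, 0.03 and 0.03, against 0.39, 0.49 and 0.12 in WT males. The change was -0.40 ± 0.10 in AKO (limma adjusted p = 0.023) and -0.46 ± 0.10 in AKDH (limma adjusted p = 0.0052), both without overlap, and those of DKO (-0.25 ± 0.10) and AHDK (-0.37 ± 0.10) were not called. Markers of other cells differed in the same genotypes. The mean over 10 smooth muscle markers was 0.02, 0.09 and -0.36 in AKO and -0.08, -0.37 and -0.46 in AKDH, against 0.77, 0.70 and 0.27 in WT, and the mean over 7 adipocyte markers was 0.96, 0.44 and 1.64 in AKO and 1.68, 1.39 and 1.47 in AKDH, against -1.18, -0.51 and 0.23 in WT. The sperm gene Prm1 was at -2.21, -1.44 and -2.03 in AKO and -2.20, -1.64 and -0.89 in AKDH, against 0.25 to 1.36 in WT. Their part in the Ttr values was not tested. The AKO call was lost without either of WT replicates 1 and 2 or either of AKO replicates 1 and 3. Ttr was the only member called in AKO vas deferens (9.35% of all genes), and 0 of 8 were called in DKO (5.87%) and AHDK (4.15%), with 2 (20.7% of all genes) and 4 (17.7%) members at an unadjusted limma p below 0.05.

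In AKDH vas deferens 4 of 8 members were called, against 24.3% of all genes. Sox9 rose, at 0.27, 0.25 and 0.25 in AKDH and -0.42, -0.30 and 0.01 in WT, by 0.50 ± 0.12 (limma adjusted p = 0.014). Ttr, Prap1 (-0.30 ± 0.09, limma adjusted p = 0.033) and Prss29 (-0.22 ± 0.07, limma adjusted p = 0.029) fell. Without WT replicate 1 or WT replicate 2, 1 member was called, and without AKDH replicate 3, 2 were.

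In the epididymis 0 of 8 members were called in AKO against WT (0.782% of all genes), with 1 at an unadjusted limma p below 0.05 (16% of all genes). Sox9 was at 0.22, -0.48 and -0.38 in AKO and -0.86, -0.52 and -1.01 in WT, without overlap, and the change of 0.58 ± 0.22 was not called (limma adjusted p = 0.27). The AKO epididymis of replicate 1 stood apart from all others, with the proximal epididymis gene Lcn8 at 7.00, against -0.05 to 0.22 in the other 5, and without it the Sox9 change was 0.37. WT epididymis had lower Sox9 (-0.56 ± 0.17, limma adjusted p = 0.021) and Ttr (-0.40 ± 0.09, limma adjusted p = 0.0036) than WT vas deferens, 2 of 8 members against 28.1% of all genes. The Sox9 call was lost without WT vas deferens replicate 3 or WT epididymis replicates 1 or 3, with changes of -0.53 to -0.43. The AKO effect in epididymis minus that in vas deferens was called for 1 of 8 members, Ttr, at 0.45 ± 0.13 (limma adjusted p = 0.049), against 7.22% of all genes. By a rule on correlations between arrays, replicate numbers of vas deferens and epididymis count as paired, although the labels name no shared animal. With the replicate block this Ttr call was lost (limma adjusted p = 0.057, and 0.0055 to 0.13 over its alternatives).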

How the data were processed

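Affymetrix arrays were run on total RNA extracted with the RNeasy Mini kit and labelled with the Ambion WT Expression and GeneChip WT Terminal Labeling kits, per the labels' protocols. The deposited table holds 28856 probe sets in 42 arrays as log values, taken as log2. Normalization, background correction and log base: not given in the sources used here. Every probe set has a median of exactly 0 over the 21 female and again over the 21 male arrays, so absolute signal is lost and it is unknown which probe sets were above background. Higher values were read as more RNA; the lower Hoxa11 in AKO uterus and the higher cilia markers in oviduct have that sign. Array medians ran from -0.05 to 0.04. No 2 arrays were identical.

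A gene was the mean over its probe sets with 1 symbol in the platform annotation: 21789 probe sets gave 19938 genes, 1621 with several symbols and 5446 with none were not used, and 21698 matched RefSeq by gene ID. limma 3.58.1 (R 4.3.3, lmFit and eBayes) was fitted within each tissue, and over both tissues of a sex for comparisons between them, with Benjamini-Hochberg adjustment over all genes. On simulated data for AHDK against WT uterus with 19938 genes, it recovered 46% of 50 genes changed by 0.5, 80% at 1, 96% at 2 and 100% at 4. It also called 6 unchanged genes. The changed genes were drawn at random and the noise was normal with each gene's own SD. These rates therefore do not describe the members, most of which varied more, or arrays that stand apart. Fold values are 2 raised to the log2 change. The number of arrays limits the precision: an exact permutation test of 3 against 3 cannot go below p = 0.1. Of 42 pairs of groups, 4 had r above 0.1 between deviations from group means for all 3 replicate numbers and so count as paired: AKO oviduct with AKO uterus, AKO with WT oviduct, and epididymis with vas deferens in AKO and in WT. No 2 uterus groups were paired. The labels name no shared animal, and AKO and WT oviducts come from different mice, so the rule does not show that 2 arrays share a mouse. The members and lists were chosen with earlier results of these data known. Named were all members, the mutated Hox genes, up to 3 genes per list by smallest adjusted p, and the 3 genes most like each member; the neighbours of Prss28, Ltf, Clca1, Cxcl15, Stat3, Socs3, Lifr, Foxa1, Xist, Eif2s3y, Lcn8 and the leading genes of WT uterus replicate 1 were added after their values were seen. Promoter sequences are from RefSeq GRCm38.p6; alignment and motif search read both strands except for TATAAA.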

Additional observations from a re-analysis of the deposited data

Results flagged for a closer look

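For Ttr, the test of the AKO effect in epididymis minus that in vas deferens gave a difference of 0.45 ± 0.13 on the log2 scale (SE, limma adjusted p = 0.049 over all genes, where 7.22% of genes were called). Ttr was at 0.01, -0.12 and 0.06 in AKO epididymis and -0.17, -0.05 and 0.03 in WT epididymis, and at -0.11, 0.00 and -0.08 in AKO vas deferens and 0.39, 0.49 and 0.12 in WT vas deferens. By the rule on correlations the replicate numbers of the 2 tissues count as paired in both genotypes, although the labels name no shared animal. The fit with the replicate block lost the call (limma adjusted p = 0.057). The call was kept in 6 of 20 alternatives, with adjusted p from 0.0055 to 0.13 and differences from 0.37 to 0.56.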

How the results depend on the processing

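Of the 2168 alternatives for single members, 1942 kept direction and side of the threshold, 123 changed direction without a call on either side, 70 lost a call, 32 gained one and 1 changed direction with a call on either side. That 1 was Prss29 in WT oviduct against WT uterus, at 0.68 (limma adjusted p = 0.0059; 0.0059 to 0.77 over its alternatives) without WT uterus replicate 1, against -1.41 with it and -2.50 to 0.68 over all fits that left out 1 array. Counts of members called moved by over 1.5 times as follows, and the cause was not tested. With quantile normalization they were 0 for AKDH and 0 for AHDK uterus against WT, 2 for AKDH against AHDK, 1 for WT oviduct against uterus, 2 for AKDH vas deferens, 1 for WT epididymis against vas deferens and 0 for the male interaction. With trend and robust eBayes they were 0 for AKDH and 1 for AHDK uterus against WT and 0 for AKDH against AHDK. With array weights they were 2 for AHDK against DKO, 2 for AKDH against AHDK, 2, 3, 8 and 1 for AKO, DKO, AKDH and AHDK vas deferens and 4 for WT epididymis against vas deferens. They also gave 3 for AHDK uterus against WT and 4 for AKO oviduct against uterus, within 1.5 times. Array weights raised the calls over all 19938 genes too. These went from 5 to 1164 for AHDK against DKO and from 343 to 1620 for AKDH against AHDK. In vas deferens they went from 1865 to 4727 for AKO, 1170 to 3926 for DKO, 4849 to 8623 for AKDH and 827 to 2049 for AHDK. For WT epididymis against vas deferens they went from 5602 to 9565. With only the groups compared they were 0 for AKDH uterus, 5 for AKO oviduct against uterus, 0 for AKO vas deferens, 1 for WT epididymis against vas deferens and 0 for the male interaction. With that setting the calls over all genes fell from 1311 to 82 for AKDH uterus against WT. With a filter on spread they were 2 for AKDH uterus, 2 for AKDH against AHDK and 0 for the male interaction. With each probe set on its own they were 0 for AKDH against AHDK and 1 for AHDK vas deferens, and with array medians subtracted 0 for the male interaction. The replicate block gave 1 member for AHDK uterus against WT and 0 for the male interaction, and it changed no other member's call in the comparisons whose replicate numbers count as paired.

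Leaving out 1 array gave 0 to 1 members for AKDH and for AHDK uterus against WT, for AKDH against AHDK, for AKO and AHDK vas deferens and for the male interaction, 2 to 4 for WT oviduct against uterus, 0 to 2 for DKO vas deferens, 1 to 4 for AKDH vas deferens and 1 to 2 for WT epididymis against vas deferens. Over all genes, the counts ranged over 1 to 63 for AKO (18 as reported), 0 to 464 for DKO (194), 82 to 1591 for AKDH (1311) and 31 to 3227 for AHDK uterus against WT (704). Signal over background is unknown for the centred values. The correlations without the WT arrays were chosen after seeing the data.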
